A study of Mus musculus with 30 samples.

Results

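The macrophage-associated genes C1qa, C1qb, C1qc, Lyz2, Laptm5, Cd68, Cd14 and Lgals3bp and the chemokine gene Cx3cl1, which encodes fractalkine, were followed in mouse kidney with ageing and with calorie restriction. All probe sets that the array annotation gives to these genes alone were taken, 12 of the 13179 probe sets of both array types and 9 of the 6137 genes named in this way. The genes had been chosen with their age and diet values on these arrays known, so their differences between groups are descriptions. Where a probe set is said to be called, it passed the threshold of a fit over all probe sets, which is given to place it and is no independent test of it. The kidneys came from C57BL/6 mice, an inbred laboratory strain, in 3 groups, with 5 title numbers in each: mice on calorie restriction aged 30 months, old controls of the same age on the control diet, and young controls aged 5 months on the control diet. The degree and duration of the restriction, and the sex of the mice, are not given in the labels. Each number had total RNA on 2 array types, called first and second below, which gave 30 samples, and the 15 numbers are called animals. The labels do not say that the numbers are separate animals, so the p-values below measure the spread between these samples, which may be partly technical.

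C1q starts the classical complement pathway and is built from A, B and C chains encoded by C1qa, C1qb and C1qc. In tissues C1q is made mainly by macrophages and dendritic cells. Lyz2 encodes the lysozyme of myeloid cells, which digests bacterial cell walls. Laptm5 encodes a lysosomal membrane protein of blood-derived cells, and Cd68 a lysosomal membrane glycoprotein used as a macrophage marker. Cd14 encodes a co-receptor for bacterial lipopolysaccharide, and Lgals3bp a secreted glycoprotein that binds galectin-3. Fractalkine differs from these in its cell source, since it is made by endothelial and epithelial cells, stands on their surface on a mucin stalk, is released by the proteases ADAM10 and ADAM17, and draws monocytes and other leukocytes that carry the receptor CX3CR1.

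Before the values, the starts of 3 of these genes are shown, because the B and C chain genes lie next to each other and their changes are set against those of Cx3cl1, which lies between the chemokine genes Ccl22 and Ccl17. Each sequence runs 5′ to 3′ from 250 bases before to 50 bases after the gene's start, from RefSeq on GRCm38.p6. C1qb is at chr4:136886151-136886450 and C1qc at chr4:136892865-136893164, both on the minus strand, and Cx3cl1 is at chr8:94771930-94772229 on the plus strand. Capitals mark matches to any of 7 motifs searched on both strands.
C1qb: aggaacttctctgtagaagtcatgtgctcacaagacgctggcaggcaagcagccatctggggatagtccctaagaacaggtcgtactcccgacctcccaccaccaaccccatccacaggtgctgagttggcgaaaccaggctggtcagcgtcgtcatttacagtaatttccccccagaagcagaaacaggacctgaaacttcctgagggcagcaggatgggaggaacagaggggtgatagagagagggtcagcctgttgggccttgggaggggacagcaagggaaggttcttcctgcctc
C1qc: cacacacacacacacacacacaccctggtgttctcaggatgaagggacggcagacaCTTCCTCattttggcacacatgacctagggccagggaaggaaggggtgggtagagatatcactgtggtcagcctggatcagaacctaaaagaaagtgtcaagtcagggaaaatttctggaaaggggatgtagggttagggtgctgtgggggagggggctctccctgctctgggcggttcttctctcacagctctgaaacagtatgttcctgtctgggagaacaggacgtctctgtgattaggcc
Cx3cl1: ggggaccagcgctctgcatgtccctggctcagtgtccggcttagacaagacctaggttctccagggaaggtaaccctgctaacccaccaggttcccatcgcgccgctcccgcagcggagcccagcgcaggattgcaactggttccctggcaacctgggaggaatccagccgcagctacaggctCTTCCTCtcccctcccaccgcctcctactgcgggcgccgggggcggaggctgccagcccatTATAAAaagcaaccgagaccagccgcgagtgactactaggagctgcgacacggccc
The motifs were GAGGAAG, the letters bound by the myeloid factor PU.1, the NF-kB motif, TGANTCA for AP-1, TTGCNNAA for C/EBP, the interferon response motif, TATAAA for the TATA box and CACGTG for the E-box of lysosomal genes. The PU.1 letters were found on the opposite strand at 194 bases before the start of C1qc and at 67 bases before that of Cx3cl1. They occur in 13.5% of the 27025 mouse promoters of the same length. The Cx3cl1 window also held TATAAA at 6 bases before the start, letters that occur in 14.2% of promoters. No match to any of these motifs was found in the C1qb window. Of the 9 genes, 7 had a sequence in the table, and among those not printed Laptm5 held the PU.1 letters at 39 bases and TATAAA at 218 bases before the start, while Cd68 held AP-1 letters at 149 and 24 bases and C/EBP letters at 43 bases before the start. AP-1 and C/EBP letters occur in 7.93% and 10.8% of promoters. The NF-kB, interferon response and E-box motifs, in 0.385%, 3.49% and 7.24% of promoters, had no match in the 7 windows.

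The deposited intensity values were whole numbers in array units and were scaled alike, with trimmed means of the 30 arrays between 1474 and 1504. Values below 0 occur, and the root mean square of the values under 0 was taken as the floor, 1103 on the first array and 1815 on the second. Between 33.5% and 37.5% of probe sets on the first array and between 23.9% and 27.7% on the second read above it. The number of arrays limits the precision of every value. A probe set was tested where it read above the floor on at least 5 of 15 arrays, which left 4518 probe sets and 10 of the 12 of these genes, the probe set of C1qa and 1 of the 2 of Cx3cl1 falling below. In every group the animals numbered 1 to 3 stood apart from those numbered 4 and 5, on a first component that held 37.0% of the within-group variance. The labels do not say what these number sets are, so values are also given within them. On the second array, targets with several probe sets of different suffixes had their order exchanged in the young columns, in 25 of 26 measured pairs between old and young controls against 0 of 27 between calorie-restricted mice and old controls. None of the 6 probe sets of these genes on the second array has another such probe set to its target, and whether their young values are affected in another way was not tested. The proximal tubule phosphate transporter Slc34a1 read between 51937 and 71136 on all 15 first arrays, a bright kidney marker in every group. Of the defining macrophage markers, Adgre1 read −759 to 445 and Csf1r, the receptor for macrophage colony-stimulating factor, −291 to 977, both at or below the floor on all 15 arrays. The macrophage label of the 8 genes was therefore not checked against either marker, and Itgam and the fractalkine receptor gene Cx3cr1 were not analysed here. In whole kidney RNA, fewer cells of a type and less RNA per cell cannot be told apart.

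**Figure D1:**
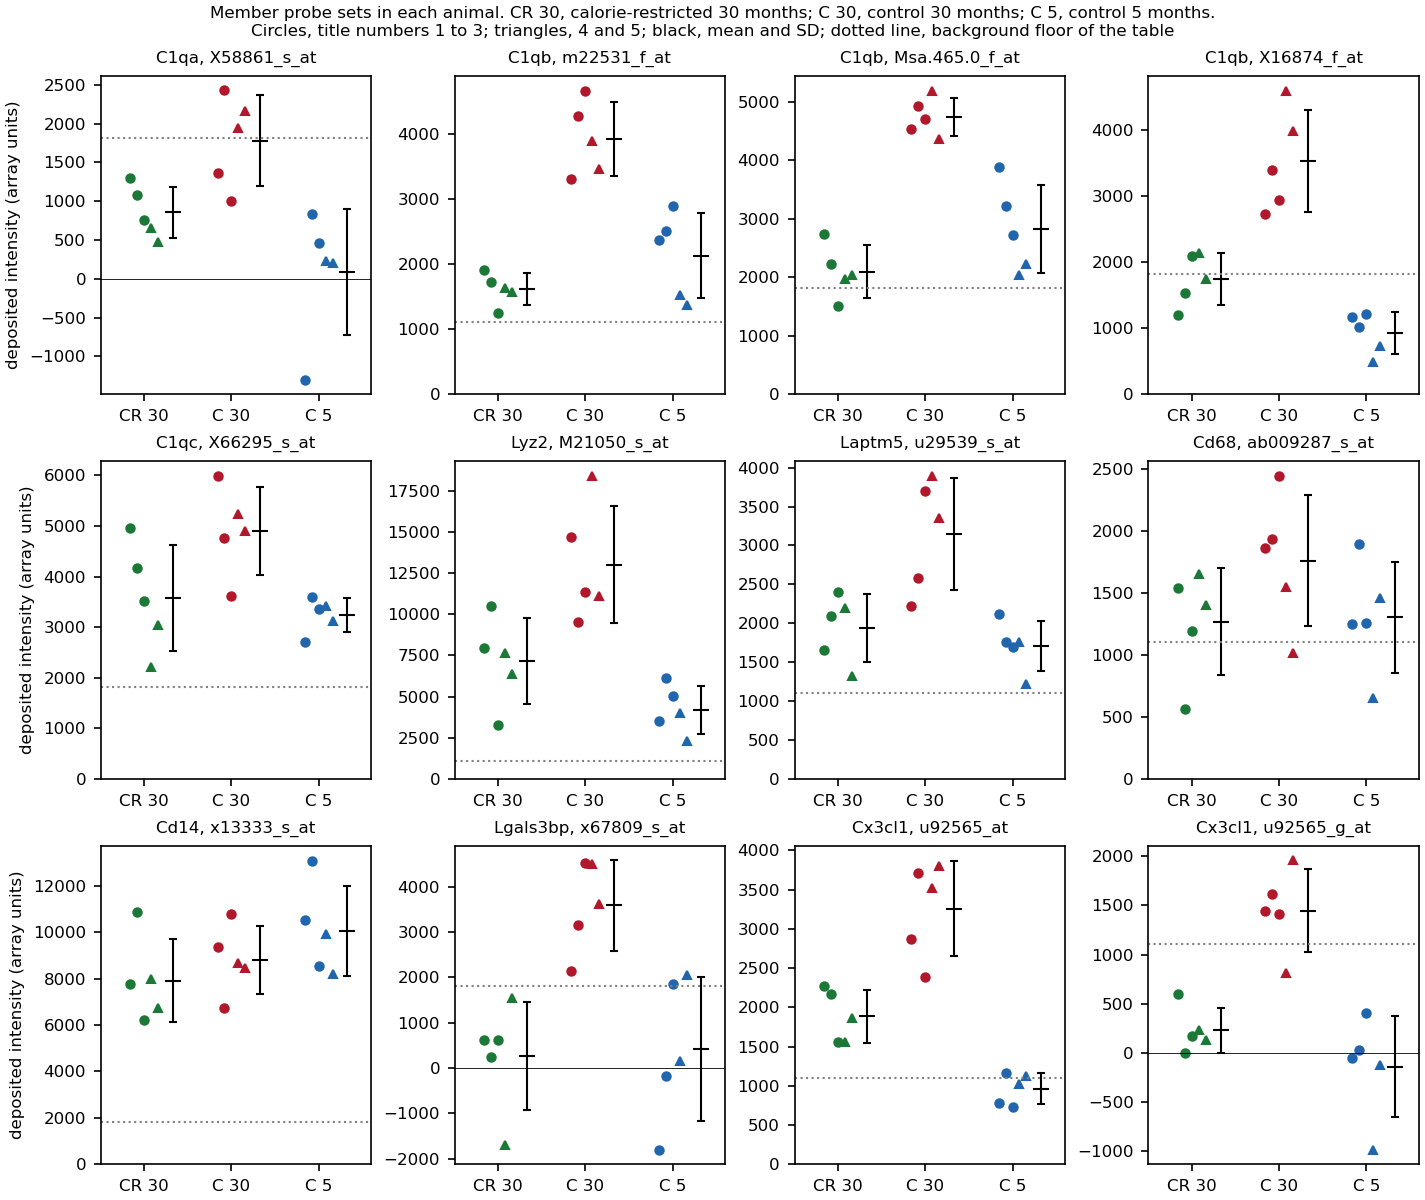
Deposited intensity (array units, vertical axis) of each of the 12 probe sets in each of the 15 animals, in calorie-restricted mice of 30 months, control mice of 30 months and control mice of 5 months from left to right, with the group mean and SD in black and the floor of the array as a dotted line. C1qb, Lgals3bp and Cx3cl1 are high in old controls, while Cd68 and Cd14 overlap between all groups, and Cx3cl1 (u92565_at) is the probe set whose calorie-restricted animals all lie between the other groups.

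The probe sets fell into those highest in old controls and those that were not. Old controls lay above young controls without overlap in 10 of the 12, and in 8 of the 10 that were tested, against 3.63% of all tested probe sets. By the limma fit over all 4518 probe sets (adjusted p under 0.05), 7 of the 10 were called, all higher in old controls, where 5.16% of all tested probe sets were called in either direction and 2.99% were called higher. Calorie-restricted mice lay below old controls without overlap in 6 of the 12 and in 5 of the 10 tested, against 2.63% of all, and 5 of the 10 were called lower, where 2.61% of all were called and 1.7% were called lower. Against young controls, 1 of the 10 was called in calorie-restricted mice, Cx3cl1, which was higher and did not overlap, where 5.71% of all were called, 2.94% were called higher and 4.12% lay above without overlap. The called C1qb set X16874_f_at and Lgals3bp passed the filter chiefly through old controls, which held 5 of their 7 readings above the floor. Since the genes were chosen on these contrasts, nothing is read from these shares. The median log2 difference of the 10 probe sets was 0.88 between old and young controls, −0.82 between calorie-restricted mice and old controls and 0.04 between calorie-restricted mice and young controls, against −0.04, 0.03 and −0.01 over all tested probe sets. The age and diet comparisons share the old controls, and the diet and young comparisons share the calorie-restricted mice, so their values are set side by side without a measure of overlap between them.

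C1qb, the B chain, was measured by 3 probe sets, all with suffix f, which the array maker gives to sets that can match a family of sequences. On the first array (m22531_f_at) it read 1908, 1718, 1254, 1638 and 1566 in calorie-restricted mice. It read 3313, 4282, 4664, 3892 and 3460 in old controls. It read 2363, 2508, 2888, 1521 and 1373 in young controls. Every old control lay above every mouse of the other groups, and calorie-restricted mice overlapped young controls only at the low end, since 3 of the 5 young controls, those numbered 1 to 3, lay above all calorie-restricted mice. The log2 difference was 0.93 ± 0.20 (SE) between old and young controls, or 1.91-fold, and −1.28 ± 0.20 between calorie-restricted mice and old controls, or 2.43-fold lower in the restricted mice. Calorie-restricted mice differed from young controls by −0.35 ± 0.20. That last value was −0.69 within numbers 1 to 3 and 0.15 within numbers 4 and 5, whereas the diet difference was −1.34 and −1.20 in these sets.

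The second array carries a probe set annotated to the same C1qb sequence record. It read 2738, 2234, 1509, 1978 and 2035 in calorie-restricted mice. It read 4540, 4933, 4715, 5192 and 4367 in old controls and 3889, 3214, 2723, 2044 and 2231 in young controls. The ordering of the groups was that of the first array, old controls being again above all others, and the young controls numbered 1 to 3 were again above those numbered 4 and 5. The log2 differences were 0.79 ± 0.17 between old and young controls, −1.15 ± 0.17 between calorie-restricted mice and old controls and −0.36 ± 0.17 between calorie-restricted mice and young controls.

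The third C1qb probe set (X16874_f_at) behaved in part differently. It read 1194, 1540, 2088, 2146 and 1745 in calorie-restricted mice. It read 2736, 3394, 2938, 4599 and 3996 in old controls. It read 1174, 1019, 1220, 481 and 726 in young controls, all of them at or below the floor of 1815. Old controls were again above both other groups, at least 1.91-fold above young controls, with a log2 difference of −0.85 ± 0.14 between calorie-restricted mice and old controls. Before flooring, the lowest restricted mouse, 1194, lay below the highest young control, 1220, and after flooring the difference between these groups was 0.09 ± 0.14, with 2 of 5 restricted mice above the floor. With the floor halved that difference was 0.72, so the position of restricted mice relative to young mice on this probe set depends on the floor. The difference was called under 1 of 27 alternative ways of processing the data.

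Agreement between the C1qb probe sets within groups was measured apart from the group differences. Deviations of the animals from their group mean on the first-array set and on the second-array set of the same record correlated with Pearson r = 0.724 over 15 animals (permutation p = 0.0313, adjusted p = 0.0939 over 3 relations, Spearman rho = 0.757, permutation p = 0.0104), and r was 0.56 without the 2 animals farthest from the median. Within numbers 1 to 3 the value was 0.366 (n = 9) and within numbers 4 and 5 it was 0.274 (n = 6), so the relation rests in large part on the difference between the number sets. X16874_f_at showed no relation to either over 15 animals, with r = −0.103 and −0.0408 (permutation p = 0.613 and 0.779, adjusted p = 0.779 for both). Only 7 of its 15 readings were above the floor, with 0 in young controls, so these values could show little agreement. Within numbers 1 to 3 they were −0.141 and −0.264 (n = 9). Within numbers 4 and 5 they were 0.678 and 0.457 (n = 6), and neither set was tested. The ratio of X16874_f_at to the other second-array set was 0.436 to 1.38 in calorie-restricted mice, 0.603 to 0.915 in old controls and 0.235 to 0.448 in young controls.

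C1qc, the C chain (X66295_s_at), moved in the same direction with a smaller difference. It read 4955, 4169, 3523, 2221 and 3051 in calorie-restricted mice. It read 5988, 4758, 3607, 5244 and 4890 in old controls and 2716, 3589, 3367, 3413 and 3121 in young controls. The lowest old control, 3607, lay just above the highest young control, 3589, and calorie-restricted mice spanned the range of both groups. The log2 differences of 0.58 ± 0.19 with age and −0.48 ± 0.19 with the diet were not called, and restricted mice differed from young controls by 0.10 ± 0.19. The diet difference was −0.17 within numbers 1 to 3 and −0.96 within numbers 4 and 5, because the restricted mice numbered 4 and 5 were the lowest of their group.

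C1qa, the A chain (X58861_s_at), was near background. It read 1301, 1078, 762, 656 and 476 in calorie-restricted mice. It read 1362, 2432, 997, 1948 and 2163 in old controls, where 3 of 5 were above the floor, and −1301, 834, 459, 227 and 201 in young controls. All old controls lay above all young controls, and restricted mice overlapped old controls. No fold is given, since 2 old controls and every mouse of the other groups read below the floor.

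Lyz2 (M21050_s_at) had the largest age difference of the tested probe sets of these genes at the floor used, followed by Cx3cl1, and with the floor halved Cx3cl1 was higher, at 1.76 against 1.67. Its probe set may not separate Lyz2 from Lyz1, the adjacent and near-identical lysozyme gene. It read 7953, 10529, 3305, 7673 and 6364 in calorie-restricted mice. It read 14694, 9525, 11340, 18394 and 11129 in old controls and 3530, 6154, 5015, 3985 and 2294 in young controls. All old controls were above all young controls, and restricted mice ran from below the young median to above the lowest old control. The log2 differences were 1.67 ± 0.30 with age, or 3.19-fold, −0.92 ± 0.30 with the diet, which was not called, and 0.75 ± 0.30 between calorie-restricted mice and young controls, also not called.

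Laptm5 (u29539_s_at) read 1655, 2096, 2401, 2202 and 1327 in calorie-restricted mice. It read 2223, 2586, 3694, 3894 and 3348 in old controls and 2125, 1756, 1694, 1760 and 1222 in young controls. Old controls lay above young controls, and the lowest old control fell within the restricted range. The log2 differences were 0.87 ± 0.20 with age, which was called, −0.70 ± 0.20 with the diet, which was not, and 0.17 ± 0.20 between calorie-restricted mice and young controls.

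Cd68 and Cd14 showed no separation of the groups. Cd68 (ab009287_s_at) read 1545, 563, 1192, 1651 and 1403 in calorie-restricted mice, 1861, 1939, 2446, 1551 and 1016 in old controls, and 1249, 1898, 1259, 656 and 1459 in young controls. It was close to the floor, with 4 of 5 arrays above it in each group, and its log2 differences were 0.33 ± 0.20 with age and −0.34 ± 0.20 with the diet. The diet difference of Cd68 was −0.71 within numbers 1 to 3 and 0.22 within numbers 4 and 5. Cd14 (x13333_s_at) was far above the floor, at 7753, 10866, 6227, 7965 and 6747 in calorie-restricted mice, 9360, 6725, 10774, 8667 and 8449 in old controls, and 10518, 13069, 8543, 9910 and 8203 in young controls. Its age difference was negative, −0.19 ± 0.18, unlike that of the other tested probe sets of these genes, its diet difference was −0.16 ± 0.18 and restricted mice differed from young controls by −0.35 ± 0.18. None of these values was called.

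Lgals3bp (x67809_s_at) was above the floor chiefly in old controls. It read 612, 249, 619, −1692 and 1544 in calorie-restricted mice, all at or below the floor. It read 2151, 3157, 4522, 4509 and 3610 in old controls, and −1802, −176, 1847, 153 and 2058 in young controls, 2 of which were above the floor. Every old control exceeded every mouse of the other groups. With floored values the log2 difference was 0.89 ± 0.17 with age, and calorie-restricted mice were at least 1.91-fold lower than old controls.

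Cx3cl1 differed between all 3 groups. The probe set above the filter (u92565_at) read 2272, 2168, 1560, 1555 and 1865 in calorie-restricted mice. It read 2869, 3709, 2383, 3524 and 3800 in old controls. It read 786, 1159, 732, 1022 and 1120 in young controls, of which 2 were above the floor of 1103. The groups did not overlap at all, restricted mice lying between old and young controls. The log2 difference was 1.52 ± 0.15 with age, or 2.88-fold, −0.79 ± 0.15 with the diet, or 1.73-fold lower, and 0.74 ± 0.15 between calorie-restricted mice and young controls, or 1.67-fold. Within numbers 1 to 3 and numbers 4 and 5 the last value was 0.81 and 0.62, and the diet difference was −0.58 and −1.11. With the floor doubled, which lies above most restricted and all young readings, the difference between restricted and young mice was 0.01.

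The other Cx3cl1 probe set (u92565_g_at) was dimmer. It read 601, 1, 173, 237 and 134 in calorie-restricted mice. It read 1447, 1613, 1408, 811 and 1959 in old controls, 4 of which were above the floor, and −47, 31, 411, −983 and −118 in young controls. Old controls again lay above all mice of the other groups, and restricted and young mice overlapped below the floor, where their order is not measured.

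**Figure D2:**
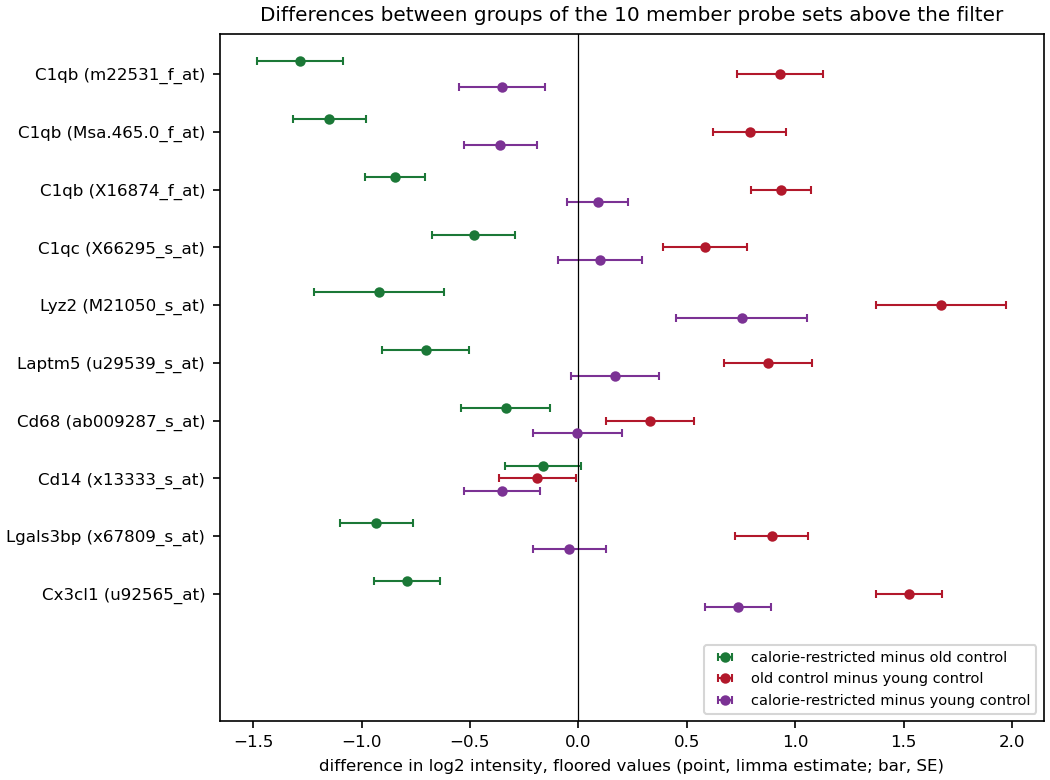
Differences in log2 intensity (horizontal axis, limma estimates with SE bars, floored values) for the 10 tested probe sets, as calorie-restricted minus old control, old control minus young control and calorie-restricted minus young control. Cx3cl1 and Lyz2 have the largest positive age differences, 1.52 and 1.67, and keep 0.74 and 0.75 between calorie-restricted and young mice, while C1qb lies at −0.35 and −0.36 on 2 of its probe sets.

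Cx3cl1 was set against the macrophage-associated genes animal by animal, as log2 Cx3cl1 minus log2 of the other gene. Only changes of this quantity between groups are read, since levels of different probe sets cannot be compared. Against C1qb on the same array (m22531_f_at) it was 0.25, 0.34, 0.32, −0.08 and 0.25 in calorie-restricted mice. It was −0.21, −0.21, −0.97, −0.14 and 0.14 in old controls, and −1.10, −1.11, −1.39, −0.47 and −0.29 in young controls. Restricted mice lay above every young control and overlapped old controls, with a mean 1.09 above that of young controls and 0.49 above that of old controls. Since 3 of the 5 young Cx3cl1 values are at the floor, the size of the differences from young controls depends on where the floor is set. Within numbers 1 to 3 restricted mice were 1.5 above young controls, and within numbers 4 and 5 they were 0.47 above. Against the second-array C1qb set of the same record the difference between restricted and young mice was 1.10, and against C1qc it was 0.64, with no overlap in either. Between restricted mice and old controls these differences were 0.36 and −0.31, with overlap in both, so C1qb and C1qc differed in sign there. Against C1qc, old controls lay 0.94 above young controls without overlap.

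Against Lyz2 the same quantity did not separate the groups. It ran from −2.30 to −1.08 in calorie-restricted mice, from −2.38 to −1.36 in old controls and from −2.41 to −1.03 in young controls, with a mean difference of −0.02 between restricted and young mice. Against Laptm5 the mean differences were 0.57 between restricted and young mice and 0.65 between old and young controls, and all groups overlapped. Against Cd14, whose own values overlapped, Cx3cl1 lay above young controls without overlap in both other groups, by 1.09 in restricted mice and 1.71 in old controls. Against the third C1qb set, X16874_f_at, whose young values are all at the floor, the mean differences were 0.65 between restricted and young mice and 0.06 between restricted mice and old controls. Against Cd68, which is close to the floor, restricted mice were 0.74 above young controls, with overlap. Against Lgals3bp, whose restricted values are all at the floor, they were 0.78 above young controls, without overlap.

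**Figure D3:**
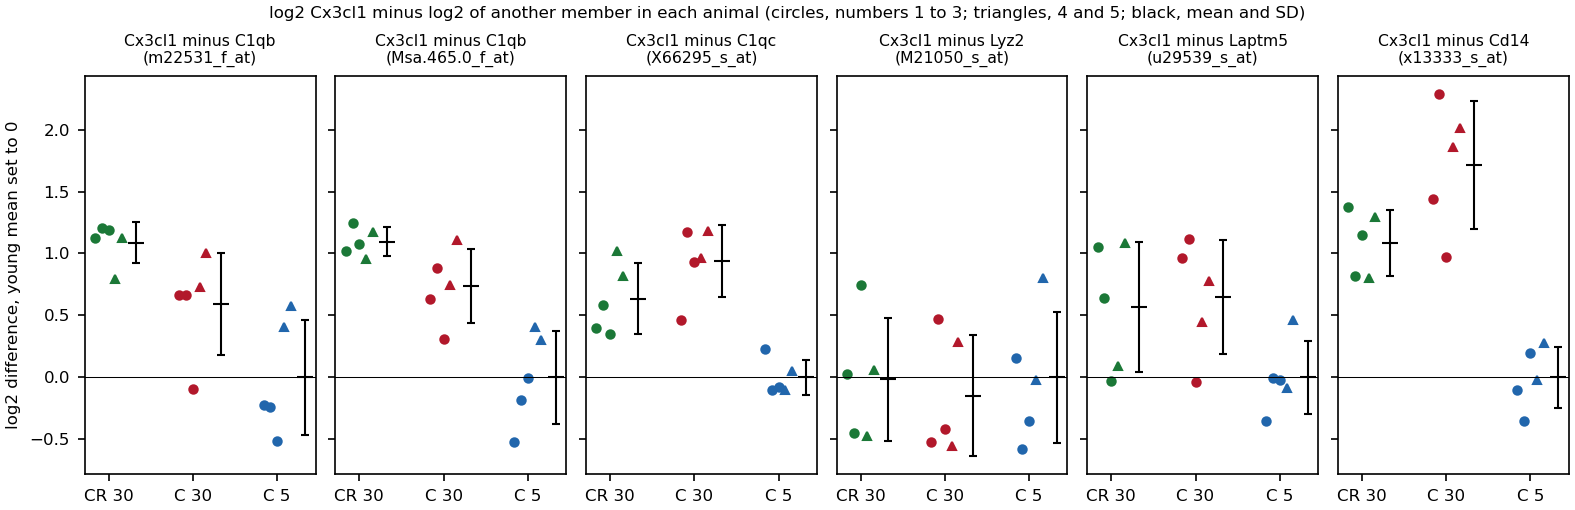
Per-animal log2 Cx3cl1 minus log2 of C1qb (2 probe sets), C1qc, Lyz2, Laptm5 and Cd14 (vertical axis, with the mean of young controls set to 0), in calorie-restricted, old control and young control mice from left to right, with mean and SD in black. Restricted mice are about 1.09 above young controls against C1qb and Cd14, and overlap them against Lyz2.

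Whether the genes vary together among mice of the same group was tested on deviations from the group mean, which do not use the group differences on which the genes were chosen. A C1q mean (the second-array C1qb set of the shared record and C1qc) and a macrophage lysosomal mean (Lyz2, Laptm5 and Cd68) were set against each other and against Cx3cl1, 3 relations in all. Because the number sets stand apart, the values within them come first. For the C1q mean and Cx3cl1, r was 0.749 within numbers 1 to 3 (n = 9, exact permutation p = 0.148, adjusted p = 0.444, Spearman rho = 0.603, exact permutation p = 0.222), and 0.553 without the 2 farthest animals. Within numbers 4 and 5 it was 0.501 (n = 6), where the smallest exact permutation p is 0.25. Every permutation within groups gave an r at least as large in size, so nothing is read from that value. Over all 15 animals, the planned test, r was 0.626 (permutation p = 0.0229, adjusted p = 0.0687, Spearman rho = 0.591, permutation p = 0.0336, adjusted p = 0.101) and 0.449 without the calorie-restricted mice 1 and 4. In this test the relation did not pass after adjustment. Young mice add little to it, since 3 of their 5 Cx3cl1 values are at the floor. Permutations over all 15 animals, here and for the other relations, crossed the number sets, so their p-values do not take account of them.

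For the C1q mean and the macrophage lysosomal mean, r was 0.285 within numbers 1 to 3 (n = 9, exact permutation p = 0.569) and −0.097 within numbers 4 and 5 (n = 6), and 0.267 over 15 animals (permutation p = 0.369, adjusted p = 0.554, Spearman rho = 0.361, permutation p = 0.225). For the macrophage lysosomal mean and Cx3cl1, r was 0.117 (n = 9, exact permutation p = 0.806) and −0.853 (n = 6, exact permutation p = 0.25, the smallest possible), and −0.0724 over 15 animals (permutation p = 0.793, adjusted p = 0.793, Spearman rho = 0.0143, permutation p = 0.965). Neither was distinguishable from 0. With the first-array C1qb set in place of the C1q mean, an alternative chosen after seeing the data, r with Cx3cl1 over 15 animals was 0.112 (permutation, adjusted p = 0.793) and r with the macrophage lysosomal mean was 0.683 (permutation, adjusted p = 0.0291). This alternative changed the array and left out C1qc at once, and the second-array C1qb set was not run alone.

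**Figure D4:**
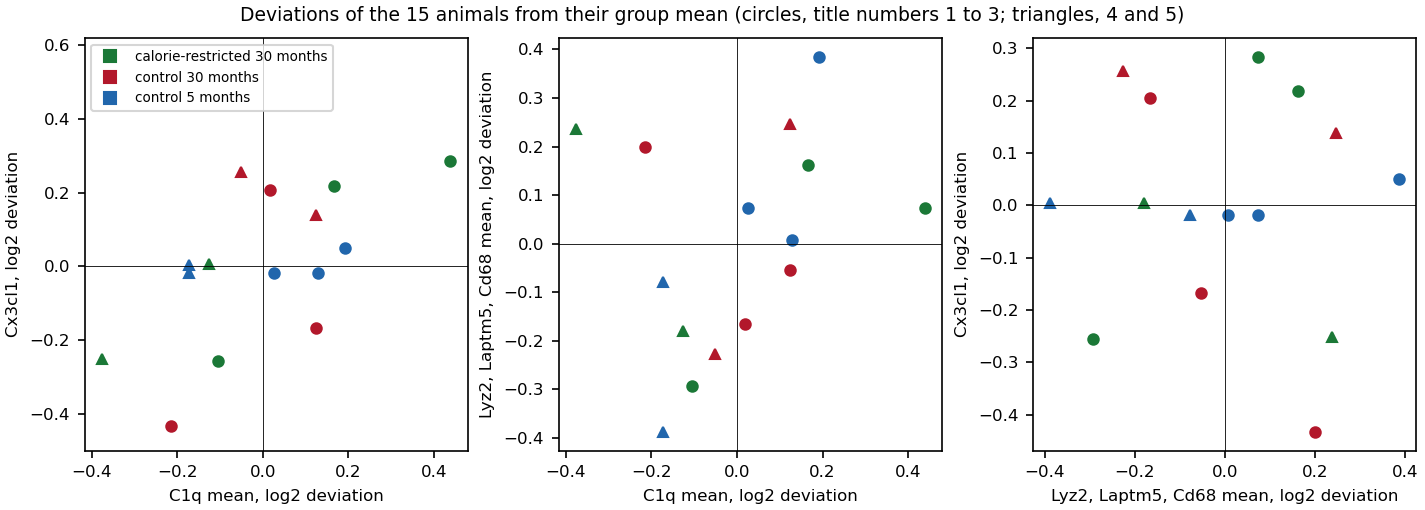
Deviations of the 15 animals from their group mean in log2 intensity, for Cx3cl1 against the C1q mean, the macrophage lysosomal mean against the C1q mean, and Cx3cl1 against the macrophage lysosomal mean, with group by colour and number set by symbol. The first panel slopes upward (r = 0.626, adjusted p = 0.0687), the other panels show no slope that passed, and the young mice lie close to 0 for Cx3cl1.

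Among 2666 other named genes, the 5 whose log2 values over the 15 animals were most like those of Cx3cl1 were Ighm (r = 0.927), H2-Ab1 (0.923), Cd74 (0.918), Ctss (0.917) and Jchain (0.892). Ighm and Jchain encode the immunoglobulin M heavy chain and the joining chain of secreted antibodies, H2-Ab1 and Cd74 a major histocompatibility complex class II chain and its chaperone, and Ctss cathepsin S, the protease that trims this chaperone. Ctss read 1591 ± 446 in calorie-restricted mice, 3736 ± 495 in old controls and 1129 ± 297 in young controls (mean ± SD, n = 5 each). The 5 most like the C1q mean were Ctss (0.905), H2-Eb1 (0.848), H2-Aa (0.827), Tmsb10 (0.826) and Mgp (0.824). These values include the group differences, rest on the same 15 animals, in part across the 2 array types, and are descriptions. Of all tested probe sets, 59 were called both higher in old than in young controls and lower in restricted mice than in old controls, and 10 of these were also called higher in calorie-restricted mice than in young controls, among them the named genes Cx3cl1, Cd74, Igha and Jchain. Ctss was not among these, at 0.35 ± 0.17 between calorie-restricted mice and young controls (limma adjusted p = 0.305), although it rose with age by 1.61 ± 0.17 (limma adjusted p = 7.49e-06) and fell by 1.26 ± 0.17 with the diet (limma adjusted p = 0.000483).

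Other genes of macrophages and dendritic cells were taken from a list. Of 43 listed, 28 were named on the arrays and 12 tested, the 9 genes above left out. With age 2 of the 12 rose and 0 fell, Ctss and Fcer1g, the signalling chain of antibody receptors, at 0.73 ± 0.19 (limma adjusted p = 0.0282). With the diet 1 rose and 1 fell, Hmox1, the heme-degrading enzyme, at 1.37 ± 0.34 (limma adjusted p = 0.0439), and Ctss. Of the 12, 10 were positive with age and 5 with the diet, and 4 and 3 had an unadjusted p under 0.05. The median log2 difference of the 12 was 0.25 with age and −0.10 with the diet, against 0.00 and 0.01 over the 2674 named genes tested, of which 52 rose and 42 fell with age and 20 rose and 31 fell with the diet. Lgals3, which encodes galectin-3, the partner of the Lgals3bp product, gave 0.02 ± 0.17 with age and 0.12 ± 0.17 with the diet (second array, limma adjusted p = 0.967 and 0.816), and its other 2 probe sets stayed below the floor. The summed intensity of the 12 ran from 74750 to 81370 in calorie-restricted mice, from 61290 to 78880 in old controls and from 49480 to 63500 in young controls. This sum was not lower in restricted mice than in old controls, but it weights genes by their brightness, and single genes differed. With the diet Ctss, Ccr2 and Fcer1g gave −1.26, −0.67 and −0.39, while Hmox1 and Plin2 gave 1.37 and 0.61. Of these 5, only Ctss and Hmox1 were called.

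Of 37 lysosomal and endosomal genes, 25 were named and 22 tested. With age 0 rose and 1 fell, Glb1, a lysosomal galactosidase, by 0.51 ± 0.14 (limma adjusted p = 0.0454). With the diet 1 rose and 0 fell, Cd63, a membrane protein of late endosomes, at 0.53 ± 0.13 (limma adjusted p = 0.0412). Between calorie-restricted mice and young controls 0 rose and 2 fell, where 72 rose and 58 fell among the 2674 named genes tested, Glb1 by 0.76 ± 0.14 (limma adjusted p = 0.00232) and Lamp2, a lysosomal membrane protein, by 0.74 ± 0.18 (limma adjusted p = 0.0211). The median of the 22 was 0.07 with age and −0.07 with the diet, and 4 and 2 of them had an unadjusted p under 0.05, against 373 and 382 of the 2674 named genes.

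Of 17 other early complement genes, 7 were named and 5 tested. Serping1, the inhibitor of C1, rose with age by 0.80 ± 0.14 (limma adjusted p = 0.00156), was −0.49 ± 0.14 with the diet (limma adjusted p = 0.0856), and the other 4 did not pass in either comparison. Of 32 chemokine genes beside Cx3cl1, 19 were named and 4 tested, and none passed with age or the diet by limma, with 1 and 0 at an unadjusted p under 0.05. The nearest to Cx3cl1 in direction was Ccl12, a monocyte-attracting chemokine, at 0.49 and −0.36 (limma adjusted p = 0.202 and 0.421). Of 18 chemokine receptor and shedding genes, 12 were named and 4 tested, and none passed with age or the diet by limma, with 2 and 0 at an unadjusted p under 0.05. Among them Ccr2, the monocyte receptor, gave 0.92 ± 0.37 with age (limma adjusted p = 0.213), and Adam10, a fractalkine-releasing protease, gave −0.26 ± 0.14 (AF011379_at, limma adjusted p = 0.373). Ackr3, a scavenging chemokine receptor, was higher in calorie-restricted mice than in young controls by 0.82 ± 0.19 (limma adjusted p = 0.0148). Adam17 stayed below the floor on all 15 arrays. Of 19 genes of the CD14 and Toll-like receptor pathway, 12 were named and 2 tested, Rela and Nfkbia, and neither passed by limma, with 0 at an unadjusted p under 0.05 in either comparison. Of 17 leukocyte adhesion genes, 12 were named and 5 tested, and none passed by limma, with 0 with age and 1 with the diet at an unadjusted p under 0.05.

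Markers of other cells were read beside these results, and their part in them was not tested. Of 16 pan-leukocyte genes 4 were tested, and Cd37, a leukocyte membrane protein, fell with the diet by 0.90 ± 0.18 (limma adjusted p = 0.0103), while Ptprc (CD45) gave 0.22 ± 0.16 with age and 0.00 ± 0.16 with the diet. The summed intensity of the 4, before flooring and over both array types, ran from 8835 to 16720 in calorie-restricted mice. It ran from 14930 to 18740 in old controls and from 10420 to 13520 in young controls, without overlap. Ptprc, a large part of it, overlapped, at 7938 to 11662 in old controls and 7292 to 11651 in young controls. Of 18 T and NK cell markers 1 was tested, of 12 neutrophil and mast cell markers 3, and of 16 endothelial markers 5, and none of these passed with age or the diet by limma, with 0, 1 and 1 with age and 0, 0 and 1 with the diet at an unadjusted p under 0.05. Endothelial sums ran from 13990 to 21830 in calorie-restricted mice, from 16410 to 20310 in old controls and from 12000 to 16860 in young controls. Of 14 tubular injury genes 7 were tested, and S100a6 and Anxa2, calcium-binding proteins, rose with age by 1.36 ± 0.27 (limma adjusted p = 0.00389) and 0.95 ± 0.25 (limma adjusted p = 0.0381), and 6 of the 7 were positive with age and 6 had an unadjusted p under 0.05, with a median of 0.60. Sums of the 7 ran from 29670 to 47730 in calorie-restricted mice, from 33830 to 56020 in old controls and from 20760 to 28140 in young controls, with both older groups above young controls without overlap. Of 18 kidney epithelial genes 11 were tested, of which the distal tubule genes Calb1 and Egf fell with age by 0.67 ± 0.17 (limma adjusted p = 0.0265) and 0.39 ± 0.11 (limma adjusted p = 0.0395), and Egf rose with the diet by 0.45 ± 0.11 (limma adjusted p = 0.0331). The median of the 11 was −0.06 with age and 0.15 with the diet. Of the 11, 4 were positive with age and 8 with the diet, and 3 and 2 had an unadjusted p under 0.05. Between calorie-restricted mice and young controls, Hmox1 at 1.65 ± 0.34 (limma adjusted p = 0.00708) and the lipid droplet gene Plin2 at 0.90 ± 0.19 (limma adjusted p = 0.00799) also rose, as did complement factor B, Cfb, at 0.67 ± 0.16 (limma adjusted p = 0.0182), S100a6 at 1.25 ± 0.27 (limma adjusted p = 0.00793) and Cd24a of the tubular injury list at 0.78 ± 0.16 (limma adjusted p = 0.00489). The sums of the kidney epithelial genes ran from 258000 to 384900 in calorie-restricted mice, from 234600 to 380800 in old controls and from 282000 to 414500 in young controls, overlapping between all groups.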

How the data were processed

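The labels give kidney total RNA of 15 numbered animals, each on 2 arrays. The authors deposited 1 intensity value per probe set and array, and how it was computed is not stated in the labels. The genes and gene lists were chosen with earlier results of these data known.

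Rows blank on any array (77 on the first) were left out. Arrays of a table were brought to 1 common mean, computed without the outer 2% at each end. Values were floored, log2 was taken, and 122 control probe sets were dropped. Each table was normalized on its own and the tables were stacked by animal. The limma 3.58.1 fit (R 4.3.3, lmFit and eBayes) held all 3 groups, and Benjamini-Hochberg adjustment ran over the 2609 and 1909 probe sets tested. A fold change is on the floored scale and understates changes near the floor. Summed intensities add scaled values before flooring, so negative readings lower them. Annotation gave 7561 probe sets 1 gene symbol and 224 several, and a RefSeq gene table brought 7544 symbols up to date through their gene numbers.

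All probe sets of the 9 genes are named. From each list up to 3 genes with the largest moderated statistic among those past 0.05 were named per comparison, by their brightest probe set, with Adgre1, Csf1r, Lgals3 and Ctss, and without values Cx3cr1 and Itgam, and the 5 genes most like Cx3cl1 and the C1q mean. Ptprc, Slc34a1, Adam10, Adam17, Ccr2, Ccl12, Rela, Nfkbia, Ackr3, Lamp2, Plin2, Cfb, Cd24a and Igha were named after their values were seen. Correlations were tested by permuting within groups, 100000 times over 15 animals and exactly within number sets. Scripts were tested on simulated data.

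Alternatives were quantile normalization, no scaling, the floor doubled or halved, asinh in place of log2, no filter or a stricter one, limma's trend and robust options, fits of the compared groups only, a replicate block, the number set as a term or alone, the second array's targets of several suffixes left out, and each animal left out. Figures were drawn with matplotlib 3.10.9.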

Additional observations from a re-analysis of the deposited data

How the results depend on the processing

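None of the differences of the 10 tested probe sets that was called changed direction under any alternative in which it was tested. The C1qb set X16874_f_at and Lgals3bp fell below the filter with the floor doubled and with at least 10 arrays required. They were not tested under those alternatives, so their calls were checked under 27, against 29 for the other called probe sets. Calls among the 10 were lost mainly in the number sets alone, which leave fewer animals. The age call of C1qb (m22531_f_at) was lost without the filter and within numbers 1 to 3, those of Lyz2, Laptm5 and Lgals3bp within either set, that of Laptm5 also without the filter, and that of the second-array set of the same record within numbers 1 to 3. The diet calls of all C1qb sets were lost within numbers 4 and 5. The Cx3cl1 diet call was lost within either set and with only the 2 groups compared, and its call against young controls within numbers 4 and 5 and with the floor doubled. The Lgals3bp diet call was lost within either set and with the asinh transform.

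Of all probe sets, 233 were called between old and young controls, 118 between calorie-restricted mice and old controls and 258 between calorie-restricted mice and young controls. Without the filter these were 155, 47 and 162. With at least 10 arrays above the floor the diet count was 50, and with only the 2 groups compared it was 70. With the number set as a term the diet and young counts were 224 and 439. Numbers 1 to 3 alone gave 151 with age and 253 with the diet, and numbers 4 and 5 alone gave 119, 5 and 97. Without targets of several suffixes on the second array, 4445 probe sets were tested. Of these, 158 were called with age, 117 with the diet and 170 between calorie-restricted and young mice. The shares called against young controls given earlier are over all tested probe sets, such targets included. Why the counts changed under these alternatives was not tested. Leaving out each animal gave 179 to 254, 73 to 133 and 195 to 266, with 73 without calorie-restricted animal 1 and 78 without animal 5.

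The labels do not say that the numbers pair animals across groups. Same-number correlations ran from −0.0149 to 0.489 with a median of 0.24, 13 of 15 being over 0.1, and 3 of 15 animals matched their own number best, so the numbers were not taken as pairs. With the replicate number as a block the counts were 277, 170 and 325. The correlation of the C1q mean and Cx3cl1 was then 0.816 (permutation within groups, adjusted p = 0.00558). These permutations crossed the blocks, so that p does not take account of them and no pass is read from it. Without the block, the correlation of the C1q mean and Cx3cl1 was 0.487 with quantile normalization, 0.444 with the floor halved and 0.497 with asinh. The permutation adjusted p-values were 0.251, 0.309 and 0.215. Without scaling it was 0.639 (permutation, adjusted p = 0.061). Leaving out each animal, that correlation ran from 0.519 to 0.705 and passed without old control 1 (0.702, permutation, adjusted p = 0.0251) or old control 5 (0.705, permutation, adjusted p = 0.0366). Taken from the mean of group and number set it was 0.712 (permutation within groups, adjusted p = 0.0799), with permutations that likewise crossed the number sets. For the C1q and macrophage lysosomal means the range was 0.149 to 0.558, and with C1qb of the first array, chosen after seeing the data, it was 0.683. For the macrophage lysosomal mean and Cx3cl1 it ran from −0.253 to 0.125, its sign turning without calorie-restricted animal 4, old control 3 or old control 5 (0.0476, 0.125 and 0.045). With the floor doubled a probe set of these means fell below the filter, so the correlations were not run. Readings near the floor, above all C1qa, Lgals3bp, Cd68 and young Cx3cl1, limit what these arrays can show.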
